A study of Comephorus dybowskii and Comephorus baikalensis and Batrachocottus nikolskii with 4 samples.

Results

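The enzymes that break down glucose and glycogen to pyruvate and lactate were followed through the skeletal muscle transcriptomes of 4 sculpin species of Lake Baikal. The members are 8 gene identifiers of the authors' Trinity assembly, out of 792 in the normalized tables, and they were listed by name for *ALDOA*, *GAPDH* (3 identifiers), *PGM1*, *PGAM2*, *PKM* and *LDHA*, 6 enzymes in all. The list sets no threshold on the levels, but it was drawn up with earlier results of these libraries known. The 792 identifiers themselves are those that the authors had called in some pair of these same species, so each of them was known to differ somewhere before it was compared here.

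Glycolysis splits glucose into pyruvate and yields ATP without oxygen, and in fish it powers the bursts of white muscle. Muscle stores its glucose as glycogen, and phosphoglucomutase carries the glucose phosphate released from glycogen into the pathway. When oxygen is short, lactate dehydrogenase turns pyruvate into lactate and restores the NAD that the GAPDH step consumes. When it is not, pyruvate passes to pyruvate dehydrogenase in the mitochondria, and shuttles move the electrons of cytosolic NADH inward.

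The design set a pelagic genus, *Comephorus* (*C. dybowski* and *C. baicalensis*, the golomyankas), against a benthic one, *Batrachocottus* (*B. nikolskii* and *B. multiradiatus*). All fish were wild and caught by trawl, and muscle RNA of 15 individuals per species, by the sample labels, was pooled into 1 library, 4 libraries in all. The study's methods report more individuals per pool than the labels do. Variation between fish of one species is therefore not measured in these files. The study also ran qPCR on unpooled fish, with *LDHA* and the malate dehydrogenase *MDH1* among its genes, and reported that it matched the sequencing. Those values were not used here. The 2 species stand as the samples of their genus, and genus, habitat and ancestry cannot be told apart. P-values measure the spread between 2 related species, not between fish.

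Levels are given as CPM, the authors' read estimates scaled to a common library size adjusted by TMM, a scaling that allows for a few abundant transcripts. CPM does not allow for transcript length, so levels were tested between species, identifier by identifier. Where identifiers of one enzyme are summed, the sums and shares are of reads and not of molecules. The count tables summed to between 54508410 and 59156409 read estimates per library. The adjusted library sizes were worked back here from the counts and CPM of abundant identifiers. They ran from 52881000 in *C. baicalensis* to 68020000 in *B. nikolskii*. A level of 0 would allow up to 0.0441 to 0.0567 CPM (3 counts), and no member was at 0 in any library. The 36 identifiers with skeletal muscle titles (parvalbumins, troponins, myosin heavy chains, muscle creatine kinase and skeletal actin) summed to 173372 CPM in *C. dybowski* and 162108 CPM in *C. baicalensis*, and to 110143 CPM in *B. nikolskii* and 140017 CPM in *B. multiradiatus*, so the labelled tissue was plain in all 4, with *B. nikolskii* lowest. Of these 36 muscle identifiers, 3 were at 0 in *B. nikolskii* and 1 each in *C. baicalensis* and *B. multiradiatus*. All marker identifiers, those of muscle included, are among the 792 called between these species, so each was known to differ somewhere. Markers at a like level in all 4 libraries could not enter. Among those that did, the libraries did not match in the other tissues. The 4 identifiers of liver and yolk (vitellogenin, apolipoprotein A and zona pellucida titles) summed to 1547 CPM in *B. nikolskii* and to between 5.44 and 9.48 CPM in the others, and none of them was at 0 in any library. The 7 keratin identifiers summed to 29.0 CPM in *B. nikolskii* and 894 CPM in *B. multiradiatus*, with 183 and 589 CPM in *C. dybowski* and *C. baicalensis*. The single hemoglobin identifier among the titles read was at 13.5 and 64.9 CPM in the *Comephorus* libraries and at 357 and 351 CPM in the *Batrachocottus* libraries. The paper reported the opposite order for hemoglobin subunit alpha, high in *Comephorus* and low in *Batrachocottus*. This identifier can thus not be taken to stand for all hemoglobin, and the reason for the opposite orders was not tested. The single perilipin identifier among the titles read ran from 0.488 CPM in *B. nikolskii* to 70.5 CPM in *B. multiradiatus*. The 4 heart-titled identifiers, all titled cardiac muscle actin, which skeletal muscle can also express, summed to between 10946 CPM in *B. nikolskii* and 54141 CPM in *C. baicalensis*. The part of these markers in the results below was not tested, and in pooled tissue fewer cells of a type cannot be told apart from less RNA per cell.

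An identifier is not always one gene. It can gather several contigs, and the authors' annotation gives each contig the titles of its best matches in a sequence search. Per the study's methods each species was assembled separately before the assemblies were joined, and the assembly that each contig came from was not traced. Of the 8 members, 7 had titles in the part of that annotation read here, and all 7 carried the title of a different protein as well. On 5 of the 7 (*GAPDH*, both GAPDH-like identifiers, *PGM1* and *PGAM2*) the other title lay on another contig. The other protein was smoothelin-like protein 2 for *GAPDH*, tRNA methyltransferase 10 homolog B and sperm-associated antigen 7 homolog for the GAPDH-like identifiers, and the alpha subunit of the nascent polypeptide-associated complex for *PGM1*. *PGAM2* shared its identifier with the protease OMA1, beta-2-glycoprotein 1 and a dienoyl-CoA isomerase. For *PKM* and *LDHA* the second title, U2 small nuclear ribonucleoprotein B'' and tumor susceptibility 101a, lay on the same contig in the opposite direction, and the libraries did not keep the strand. A further contig of the *PKM* identifier was titled beta-parvin, and a further contig of the *LDHA* identifier was titled tumor susceptibility 101a alone. In 2 members the assembler's isoform name was repeated on contigs with different titles. In *PKM* these were a PKM-like contig and the beta-parvin contig, and in *PGAM2* those titled OMA1 and beta-2-glycoprotein 1. Per the study's methods, numerical suffixes were added to all sequence names after the assemblies were joined, so that each name was unique. Whether such contigs came from different assemblies was not tested. *ALDOA* takes its name from the study, with no title read here. A level below is thus that of an identifier, which may include reads of the other protein, and how much of it they made up was not tested.

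The pathway was not covered whole. No title for hexokinase, glucose-6-phosphate isomerase, phosphofructokinase, triosephosphate isomerase, phosphoglycerate kinase or enolase was among those read, and these steps are not analysed here.

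The first comparison asked how the pelagic and benthic genera differed at each step. In all 8 members the ranges of the genera did not overlap, with both *Batrachocottus* libraries above both *Comephorus* libraries in 6 and the reverse in 2. Among all 792 identifiers 39.9% had the first order and 44.6% the second, 84.5% together, so a member that did not overlap was like most of the table. By limma on log2(CPM + 1) with Benjamini-Hochberg adjustment, 2 members were called with a higher level in *Comephorus* (30.1% of all identifiers were) and 2 with a higher level in *Batrachocottus* (24.0% were), and 4 were not called. In either direction 54.0% of all identifiers were called. The median difference of the 8, *Comephorus* minus *Batrachocottus*, was -4.46 on the log2 scale against 1.40 over all identifiers, and it was -2.33 without *B. nikolskii*. The calls were lost without single libraries. Leaving out *B. nikolskii*, *C. dybowski* or *C. baicalensis* left limma with no call, among the members or among all identifiers. Leaving out *B. multiradiatus* left calls among both, and the median difference of the members was -4.71. In each of these fits 1 genus rests on 1 library, so a call lost or kept there is not particular to the members. All 8 differences kept their direction in each of these fits.

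**Figure D1:**
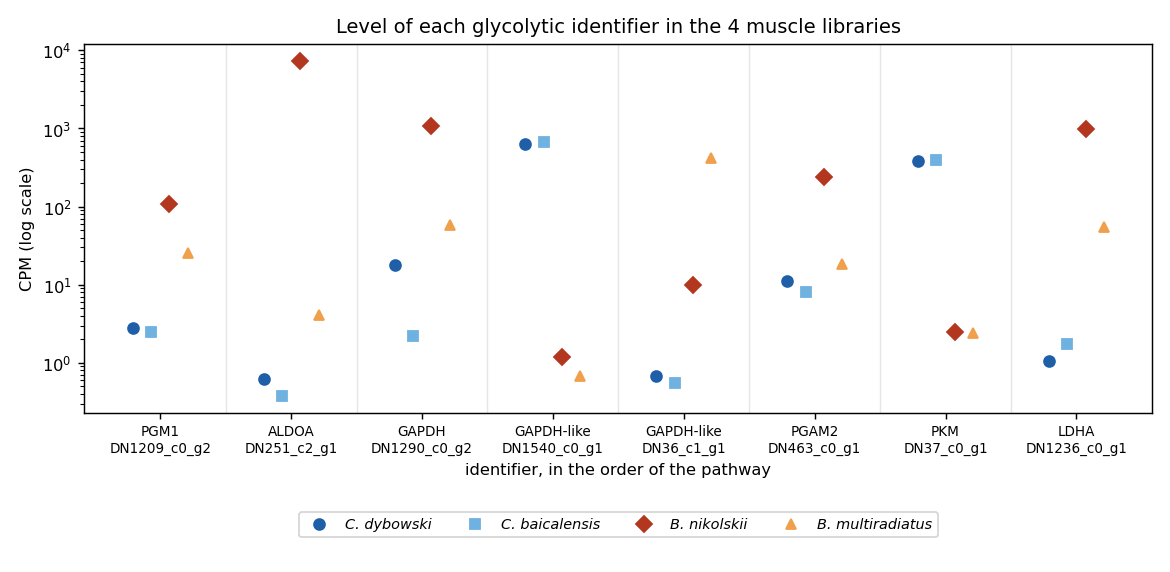
CPM of the 8 identifiers on a log scale, in the order of the pathway, with 1 point per pooled library. The red diamonds of *B. nikolskii* stand highest in 5 identifiers, *C. baicalensis* is the highest in 2 and *B. multiradiatus* in 1.

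Phosphoglucomutase-1 (*PGM1*, TRINITY_DN1209_c0_g2) interconverts glucose-1-phosphate from glycogen and glucose-6-phosphate, the entry to glycolysis. Its level was 2.78 CPM in *C. dybowski*, 2.44 CPM in *C. baicalensis*, 109 CPM in *B. nikolskii* and 25.6 CPM in *B. multiradiatus*. The *Comephorus* libraries were low and close together, and the lower *Batrachocottus* library was 9.23-fold above the higher of them. The difference was -3.91 on the log2 scale (SE 1.02, n = 2 species per genus; adjusted p = 0.0382 by limma).

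Fructose-bisphosphate aldolase A (*ALDOA*, TRINITY_DN251_c2_g1), the muscle aldolase, cleaves fructose-1,6-bisphosphate into a pair of triose phosphates. It was at 0.627 CPM in *C. dybowski*, 0.378 CPM in *C. baicalensis*, 7359 CPM in *B. nikolskii* and 4.15 CPM in *B. multiradiatus*. The high level of this identifier was thus in 1 library of the 4, and *B. multiradiatus* was nearer to *Comephorus* than to its own congener. No aldolase title was among those read, so other aldolase identifiers could not be looked for. The level of aldolase as an enzyme in these species is therefore not known from this identifier. The low values rest on few reads, with 95% Poisson intervals of 0.439 to 0.876 CPM in *C. dybowski* and 0.231 to 0.584 CPM in *C. baicalensis*, which cover counting error only. The genus difference of -7.02 had an SE of 3.79 and was not called by limma (adjusted p = 0.177). Without *B. nikolskii* it was -1.78 and not called (adjusted p = 0.147 by limma). Without *B. multiradiatus* it was -12.26 and called (adjusted p = 0.0483 by limma), in a fit that assumes the lone *B. nikolskii* library to vary as the others do.

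Glyceraldehyde-3-phosphate dehydrogenase (GAPDH) oxidizes glyceraldehyde-3-phosphate and reduces NAD, and it is often used as a reference gene. TRINITY_DN1290_c0_g2, titled GAPDH, had 17.9 CPM in *C. dybowski*, 2.18 CPM in *C. baicalensis*, 1064 CPM in *B. nikolskii* and 58.6 CPM in *B. multiradiatus*. TRINITY_DN1540_c0_g1, titled GAPDH-like, had 630 CPM, 673 CPM, 1.18 CPM and 0.680 CPM in the same order. TRINITY_DN36_c1_g1, also titled GAPDH-like, had 0.683 CPM, 0.557 CPM, 9.84 CPM and 414 CPM. Each was high in other species. The first was highest in *B. nikolskii*, the second was high in both *Comephorus* libraries alone, and the third was high in *B. multiradiatus*.

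Of the 3, only DN1540 was called in the comparison of genera by limma, with a difference of 8.41 (SE 0.73, adjusted p = 0.0126) and a gap of 534-fold between the nearest libraries. DN1290 differed by -5.02 (SE 1.88, adjusted p = 0.0885) and DN36 by -5.37 (SE 2.00, adjusted p = 0.0877), neither past the threshold, and in both the *Batrachocottus* libraries lay far apart. Leaving out a *Batrachocottus* library gave differences from -7.10 to -2.94 for DN1290 and from -8.00 to -2.74 for DN36, the smaller one without *B. nikolskii* for DN1290 and without *B. multiradiatus* for DN36, and limma called none of them.

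Phosphoglycerate mutase 2 (*PGAM2*, TRINITY_DN463_c0_g1), the muscle form, moves the phosphate of 3-phosphoglycerate to its second carbon. It had 11.2 CPM in *C. dybowski*, 8.07 CPM in *C. baicalensis*, 236 CPM in *B. nikolskii* and 18.7 CPM in *B. multiradiatus*. The gap between the genera was the smallest of the 8 members, 1.66-fold from *C. dybowski* to *B. multiradiatus*. The difference of -2.70 (SE 1.47) was not called by limma (adjusted p = 0.179). It was -0.90 and not called without *B. nikolskii* (adjusted p = 0.364 by limma), and -4.49 and called without *B. multiradiatus* (adjusted p = 0.0483 by limma).

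Pyruvate kinase (*PKM*, TRINITY_DN37_c0_g1, titled PKM-like) makes pyruvate and ATP in the last step of glycolysis. It was at 378 CPM in *C. dybowski*, 399 CPM in *C. baicalensis*, 2.50 CPM in *B. nikolskii* and 2.44 CPM in *B. multiradiatus*. The species of each genus were nearly level, and the nearest libraries of the genera were 151-fold apart. The difference was 6.81 (SE 0.71, adjusted p = 0.0130 by limma).

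Lactate dehydrogenase A (*LDHA*, TRINITY_DN1236_c0_g1) encodes the muscle subunit of the enzyme that reduces pyruvate to lactate. It was at 1.07 CPM in *C. dybowski*, 1.72 CPM in *C. baicalensis*, 984 CPM in *B. nikolskii* and 54.0 CPM in *B. multiradiatus*. Both *Comephorus* libraries were low, with Poisson intervals of 0.808 to 1.37 CPM and 1.39 to 2.11 CPM, and the nearest libraries were 31.4-fold apart. The difference was -6.62 (SE 1.65, adjusted p = 0.0349 by limma). With a pseudocount of 10 in place of 1 the calls of *LDHA* and *PGM1* were lost (adjusted p = 0.0898 and 0.0771 by limma), and the calls of DN1540 and *PKM* stayed. Of all 792 identifiers, limma still called 165 towards *Batrachocottus* at that pseudocount, against 190 with a pseudocount of 1.

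**Figure D2:**
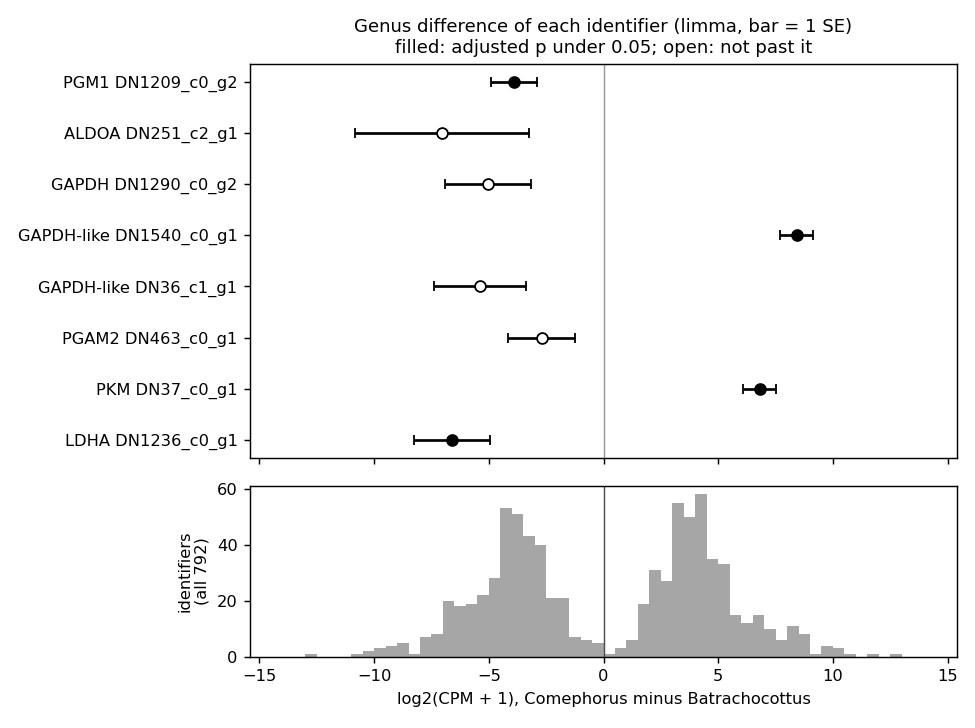
Upper panel, difference of log2(CPM + 1) between the genera for each identifier, with bars of 1 SE (limma, 2 species per genus) and filled points where the adjusted p was under 0.05. Lower panel, the same difference for all 792 identifiers. DN1540 and *PKM* lie to the right with short bars, and the other 6 lie to the left.

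The contrast was also fitted on the count tables, which hold the same reads for more identifiers. An identifier enters the table of a genus when both of its libraries are above a low minimum, and 4755 identifiers are listed for both genera, 5 of the 8 members among them. *ALDOA* and DN36 are listed for *Batrachocottus* only and DN1540 for *Comephorus* only. A missing entry is not a count of 0. By edgeR's quasi-likelihood test on the shared identifiers, 1 member was called with a higher level in *Comephorus* (5.01% of all shared identifiers were) and 2 with a higher level in *Batrachocottus* (4.21% were), with 9.21% called in either direction. The members come from the 792 identifiers that were already called between these libraries, so these percentages are no measure for them. Of the 537 shared identifiers that are also among the 792, 27.4% had a called difference towards *Comephorus* by edgeR and 19.0% one towards *Batrachocottus*, 46.4% in all, beside 3 of the 5 members. *PKM* differed by 7.32 on the log2 scale (adjusted p = 0.0173), *PGM1* by -4.59 (adjusted p = 0.0402) and *LDHA* by -8.39 (adjusted p = 0.0456). DN1290 differed by -5.70 (adjusted p = 0.110) and *PGAM2* by -3.59 (adjusted p = 0.120), not past the threshold of edgeR, though both were past an unadjusted p of 0.05. DESeq2 called all 5 members, *PKM* higher in *Comephorus* and the other 4 higher in *Batrachocottus*, where it called 18.4% and 19.6% of the shared identifiers, 38.0% in either direction. These shares too are over all 4755 shared identifiers and are no measure for the members. The share among the 537 was not computed for DESeq2. Without *B. nikolskii* or without *B. multiradiatus* edgeR called 0 members and 0 of all identifiers (1274 and 1441 were under an unadjusted p of 0.05). Without *C. baicalensis* the calls of *PGM1* and *LDHA* were lost, and without *C. dybowski* that of *PGM1* was lost and DN1290 was called (adjusted p = 0.0464).

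The second comparison was between the species of one genus, where 1 library each allows no test, and a 4-fold ratio of CPM was used to name differences. In *Batrachocottus*, 5 members had at least 4 times the CPM in *B. nikolskii* (22.3% of all identifiers did) and 1 was at least 4-fold higher in *B. multiradiatus* (16.7% were). The ratio of *B. nikolskii* to *B. multiradiatus* was 1774 for *ALDOA*, 18.2 for both DN1290 and *LDHA*, 12.6 for *PGAM2* and 4.25 for *PGM1*. DN36 went the other way and was 42.1-fold higher in *B. multiradiatus*. The members that were low in this genus, DN1540 and *PKM*, had ratios of 1.74 and 1.02. The liver and yolk markers, also drawn from identifiers called between species, were highest in *B. nikolskii* as well. The skeletal muscle markers, drawn in the same way, were lowest there. Their part in these ratios was not tested. With plain column totals in place of the adjusted library sizes each ratio rose by the same factor, to 2295 for *ALDOA* and 23.6 for *LDHA*, and the counts of 5 and 1 members did not move.

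In *Comephorus* the members were much closer. DN1290 alone passed 4-fold, at 8.22 times the level in *C. dybowski* as in *C. baicalensis* (16.5% of all identifiers were at least 4-fold higher in *C. dybowski*), and none passed it the other way (20.2% did). The abundant DN1540 and *PKM* had ratios of *C. dybowski* to *C. baicalensis* of 0.936 and 0.948. The ratio was 1.14 for *PGM1*, 1.23 for DN36, 1.39 for *PGAM2*, 1.66 for *ALDOA* and 0.623 for *LDHA*, and the last is a ratio of 59 to 91 deposited counts.

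**Figure D3:**
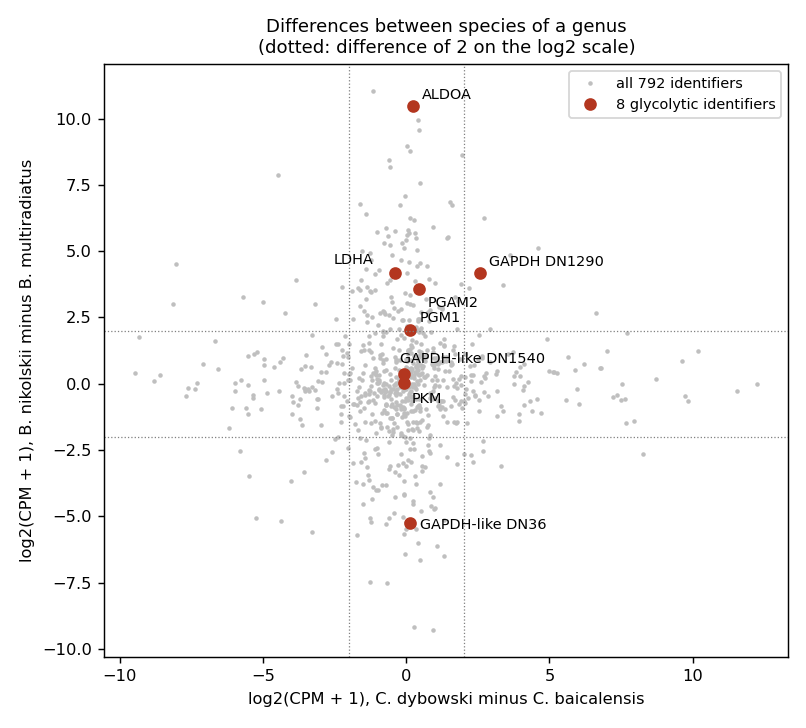
Difference of log2(CPM + 1) between the *Comephorus* species (x axis) and between the *Batrachocottus* species (y axis), with all 792 identifiers in grey and the 8 members in red. *ALDOA* lies at 10.48 on the y axis and 0.24 on the x axis, and DN1290 alone of the members lies past 2 on both.

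The third comparison took the enzyme rather than the identifier as the unit, since the same protein title can stand on several identifiers. Only titles on the 792 identifiers called between species were used. Identifiers of the same enzyme outside them are not in the sums, so these are not totals of an enzyme. Summed over its 3 identifiers, GAPDH was at 649 CPM in *C. dybowski*, 676 CPM in *C. baicalensis*, 1075 CPM in *B. nikolskii* and 474 CPM in *B. multiradiatus*. The genera overlapped, with the *Comephorus* libraries between those of *Batrachocottus*, which were 2.27-fold apart. The difference of the sums was -0.11 (SE 0.73), not called by limma over all titles (adjusted p = 0.911). A different identifier held most of the summed reads in *Comephorus*, in *B. nikolskii* and in *B. multiradiatus*. The lengths of the identifiers were not known, so these are not shares of transcripts. DN1540 made up 97.1% of it in *C. dybowski* (95% Wilson interval 97.0 to 97.3%) and 99.6% in *C. baicalensis* (99.5 to 99.7%), DN1290 made up 99.0% in *B. nikolskii* (98.9 to 99.0%), and DN36 made up 87.5% in *B. multiradiatus* (87.1 to 87.9%). These sums include whatever the other titles of the 3 identifiers contributed. Without *B. nikolskii* the difference was 0.48 and without *B. multiradiatus* it was -0.70, neither called.

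*PKM* had a second identifier, TRINITY_DN237_c0_g1, which carries 7 titles in all. It was at 7.47 CPM in *C. dybowski*, 19.3 CPM in *C. baicalensis*, 482 CPM in *B. nikolskii* and 14.8 CPM in *B. multiradiatus*, so it was high where DN37 was low, but only in *B. nikolskii*. The sum of both was 385, 418, 485 and 17.3 CPM in the same order. In that sum 3 libraries were close and *B. multiradiatus* was low, and DN237 held 99.5% of it in *B. nikolskii* (99.4 to 99.6%) against 4.62% in *C. baicalensis* (4.35 to 4.90%). The difference of the sums was 2.10 (SE 1.80, adjusted p = 0.36 by limma), against the called 6.81 of DN37 alone. It was -0.27 without *B. multiradiatus* and 4.46 without *B. nikolskii*, in fits where *Batrachocottus* rests on 1 library. *PGM1*, *PGAM2* and *LDHA* each had 1 identifier among the titles read, so for them no sum could be formed. For *ALDOA* no title was read, so a sum could not be formed either. Whether further identifiers of these enzymes would change their genus differences was not tested.

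**Figure D4:**
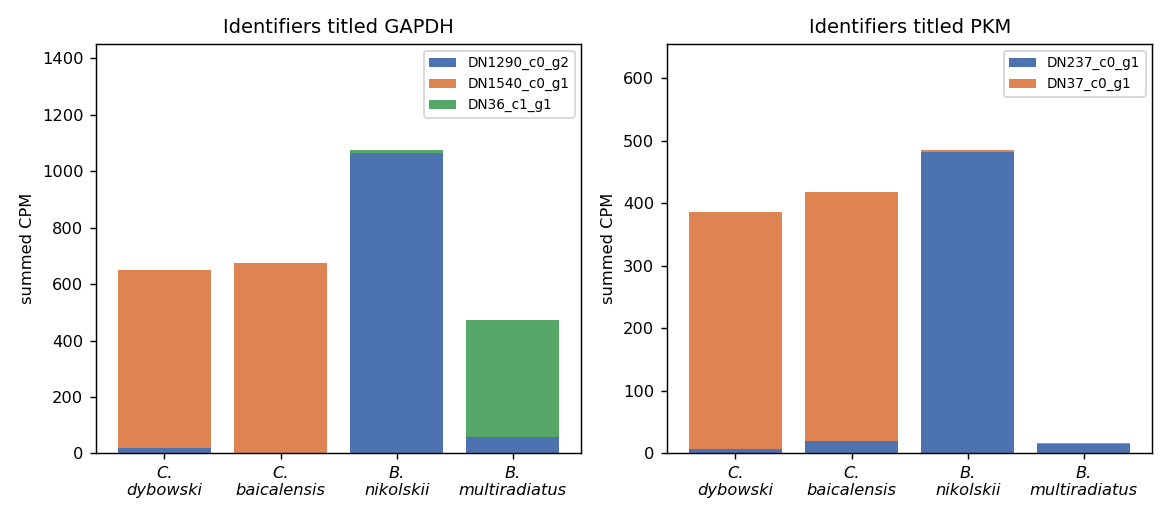
Summed CPM of the identifiers titled GAPDH (left, 3 identifiers) and PKM (right, 2 identifiers) in each library, with colours for the identifiers. GAPDH sums run from 474 to 1075 CPM, with a different colour filling the bar in *Comephorus*, *B. nikolskii* and *B. multiradiatus*, and the PKM bar of *B. multiradiatus* is the lowest at 17.3 CPM.

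The neighbouring pathways were read from 18 other identifiers chosen by title, of which 11 carry other titles too. By limma 5 of the 18 had a called difference towards *Comephorus* and 7 one towards *Batrachocottus*, against 30.1% and 24.0% of all identifiers, and 6 were not called. In 17 of the 18 the genera did not overlap (84.5% of all). Leaving out *B. nikolskii* or either *Comephorus* library left none of them called by limma, as of all identifiers. Some were still called without *B. multiradiatus*.

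Glycogen metabolism, which feeds *PGM1*, was split. Muscle glycogen phosphorylase (TRINITY_DN170_c1_g1, 1 title), which releases glucose-1-phosphate from glycogen, was at 0.134 CPM in *C. dybowski*, 5.05 CPM in *C. baicalensis*, 241 CPM in *B. nikolskii* and 141 CPM in *B. multiradiatus*. It was higher in *Batrachocottus*, as *PGM1* was (difference -6.14, SE 1.15, adjusted p = 0.0209 by limma), and both species of that genus were high. Glycogenin, the primer of glycogen synthesis, was also higher in *Batrachocottus* (difference -6.50, SE 1.03), on an identifier that carries the title of a ribosomal protein too. The enzyme that makes UDP-glucose for glycogen (TRINITY_DN652_c0_g2, 1 title) went the other way, at 34.4, 20.2, 1.21 and 0.741 CPM in the same order (difference 3.80, SE 0.77, adjusted p = 0.0229 by limma). Muscle glycogen synthase stood at 764 CPM in *C. dybowski* and 35.5 CPM in *C. baicalensis* against 8.20 and 17.8 CPM, a difference of 3.67 (SE 1.75) that was not called (adjusted p = 0.143 by limma), on an identifier also titled WAS/WASL-interacting protein family member 2.

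At the fate of pyruvate, 2 of the 4 identifiers for subunits of pyruvate dehydrogenase were called higher in *Comephorus*, opposite to *LDHA*, and 1 was called higher in *Batrachocottus*. The E2 component (DLAT, TRINITY_DN111_c0_g1) was at 3813 and 3528 CPM in *C. dybowski* and *C. baicalensis* and at 12.6 and 73.4 CPM in *B. nikolskii* and *B. multiradiatus* (difference 6.85, SE 1.13, adjusted p = 0.0194 by limma), on an identifier also titled GTPase IMAP family member 7. The E1 alpha subunit (TRINITY_DN3_c0_g2) differed by 6.24 (SE 0.84) in the same direction, on an identifier that carries 5 titles, muscle creatine kinase among them. The E1 beta subunit had an identifier for each genus. DN24278 was at 3.80, 24.5, 1.06 and 1.40 CPM and was not called (adjusted p = 0.145 by limma), and DN38048 was at 1.05, 0.819, 17.6 and 30.6 CPM and was called higher in *Batrachocottus* (adjusted p = 0.0241 by limma). DN38048 is also titled microtubule-associated protein tau. Summed, E1 beta was at 4.85, 25.3, 18.7 and 32.0 CPM, where the genera overlapped and the difference was not called (adjusted p = 0.417 by limma).

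The shuttles for NADH showed both directions. Cytosolic malate dehydrogenase was titled on one identifier high in *Comephorus* (TRINITY_DN3489_c1_g1, at 108, 252, 0.567 and 2.47 CPM, difference 6.16, SE 0.93) and on one high in *Batrachocottus* (TRINITY_DN4529_c0_g2, at 1.18, 1.14, 63.1 and 33.0 CPM, difference -4.43, SE 0.78). Both were called by limma (adjusted p = 0.0186 and 0.0199). The first is also titled thiamin pyrophosphokinase 2, and the second carries 1 title. The paper reported *MDH1* as lower in both *Comephorus* species and higher in *Batrachocottus*, which is the direction of the second alone. Which identifier the paper's *MDH1* rests on was not traced. Aspartate aminotransferase, the partner enzyme of the malate and aspartate shuttle, was higher in *Comephorus* in its mitochondrial form (difference 3.32, SE 0.83) and higher in *Batrachocottus* in its cytosolic form (difference -4.56, SE 0.87), each on an identifier with 1 title. Mitochondrial malate dehydrogenase differed by 4.12 (SE 1.54) and was not called (adjusted p = 0.0888 by limma). Mitochondrial glycerol-3-phosphate dehydrogenase, which passes electrons from cytosolic glycerol phosphate to the respiratory chain, had a pair of identifiers, both higher in each *Batrachocottus* library. TRINITY_DN2873_c0_g1 was called (difference -5.83, SE 0.88, adjusted p = 0.0186 by limma), with a second title for a galactoside-binding lectin, and TRINITY_DN2085_c0_g1 was not (difference -3.73, SE 1.41, adjusted p = 0.0903).

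The regulator PFKFB1, which sets the level of fructose-2,6-bisphosphate, shared its identifier with the title nuclear body protein SP140. It was at 1.16, 0.424, 25.7 and 6.03 CPM and was not called (difference -2.97, SE 1.01, adjusted p = 0.0728 by limma). The identifier titled glucose-6-phosphate dehydrogenase, the first enzyme of the pentose phosphate pathway, was at 3.81, 3.77, 5715 and 3125 CPM. It was called higher in *Batrachocottus* (difference -9.78, SE 0.78, adjusted p = 0.0126 by limma), but it carries 5 titles, a skeletal myosin light chain among them, and the part of each in that level was not tested.

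**Figure D5:**
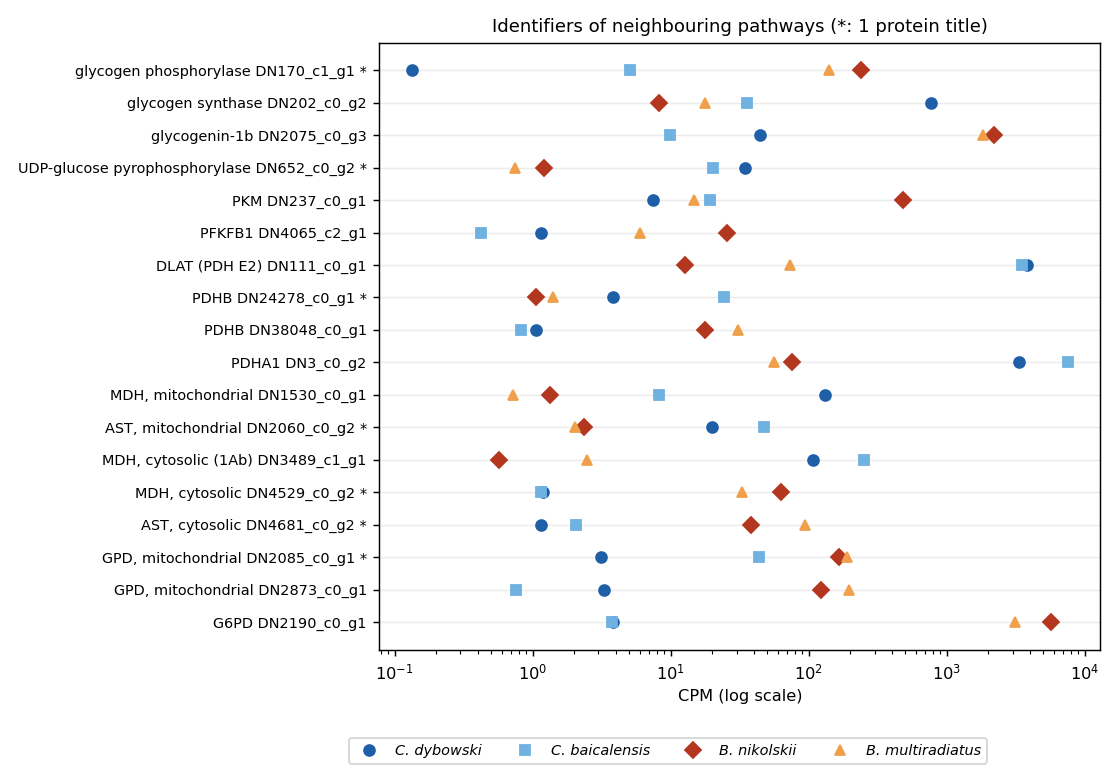
CPM on a log scale of the 18 identifiers of neighbouring pathways, 1 point per pooled library, with a star where the identifier carries 1 protein title. Glycogen phosphorylase lies between 0.134 and 241 CPM with both *Batrachocottus* libraries on the right, and the identifiers of cytosolic malate dehydrogenase lie in opposite order.

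The identifiers most like each member over the 4 libraries were found by the mean absolute difference of centred log2(CPM + 1), as a description. For *LDHA* it was 40S ribosomal protein S3 (0.10 on the log2 scale, against a median of 4.09 over all identifiers), at 0.738, 1.59, 745 and 48.0 CPM. For *PGM1* it was subunit 6A of cytochrome c oxidase (0.10, median 2.89), and for *ALDOA* it was skeletal myosin light chain 1 (0.66, median 4.81), at 0.306, 0.197, 1762 and 2.98 CPM. A level in *B. nikolskii* far above the other 3 libraries was found also in a myosin light chain identifier. For DN36 the nearest was myosin binding protein Hb (0.33), for DN1540 an uncharacterized protein (0.10), and for DN1290, *PGAM2* and *PKM* identifiers with several titles (0.63, 0.20 and 0.11).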

How the data were processed

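Muscle RNA of 4 species (1 pooled library each) was sequenced as paired reads. Per the labels and the study's methods, the authors trimmed reads with Trimmomatic 0.36, built an assembly per species in Trinity, merged these by clustering in CD-HIT, and ran Salmon for read estimates. The count values are whole-number read estimates per Trinity identifier as deposited, without normalization. The CPM values were made by the authors with edgeR 4.0.3 on a TMM-adjusted library size, and are deposited for 792 identifiers called between species.

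The genus contrast was fitted here by limma 3.58.1 on log2(CPM + 1), and by edgeR 4.0.16 (quasi-likelihood, TMM) on counts of 4755 identifiers, in R 4.3.3, with Benjamini-Hochberg adjustment and a threshold of 0.05. Fold changes on the log2(CPM + 1) scale understate changes of low genes. DESeq2 1.42.0, pseudocounts of 0.1 and 10, a filter at a mean of 10 CPM, plain totals, sums by title and leaving out each library were alternatives. The scripts were tested on simulated data. The simulation gave both species of a genus the same expected level, so it does not measure how reliable the calls are here. Intervals (95%, Wilson or exact Poisson) cover counting error only, on read estimates taken as CPM times library size. That size was worked back from counts and CPM.

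Protein titles came from 1325 rows of the study's annotation, which was read in part, and 657 of the 792 identifiers had one. The named identifiers are all 8 members, all 18 of the pathway lists, and for each member the titled identifier with the nearest pattern. The members and lists were chosen with earlier results of these data known. Marker lists were those given with the levels. No sequences or coordinates were used here.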

Additional observations from a re-analysis of the deposited data

How the results depend on the processing

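The direction of each member's genus difference was the same in all 86 member values under the alternatives, and 23 of these lost a call and 7 gained one. These values pair each member with each setting, and all settings draw on the same 4 libraries. The number of members called by limma on normalized values was 2 higher in *Comephorus* and 2 higher in *Batrachocottus*. Without 1 library these counts ran from 0 to 2 and from 0 to 4, and with a pseudocount of 10 the second was 0. For the pathway lists (5 and 7) the counts without 1 library ran from 0 to 3 and from 0 to 3. On counts, the calls of 1 and 2 members ran from 0 to 1 and from 0 to 2 without 1 library, were 2 and 6 with 0 entered where a genus has no entry, a setting that called 5640 and 6028 of 15221 identifiers, and were 4 higher in *Batrachocottus* with DESeq2. The median of the members (-4.46) ran from -4.71 to -2.33 without 1 library. The summed GAPDH difference (-0.11) ran from -0.70 to 0.48 and that of PKM (2.10) from -0.27 to 4.46 without 1 library, with a change of sign in each, and for PKM it was 6.81 with the member identifier alone. No direction of a ratio within a genus changed with plain totals. The cause of these changes was not tested, beyond the fewer libraries of a fit that leaves one out. The filter at 10 CPM changed none of the members' calls. A pseudocount of 10 left 165 of the 792 identifiers called towards *Batrachocottus* (190 with 1) and 214 towards *Comephorus* (238 with 1). The 2 member calls lost at that setting were thus lost while many other identifiers were still called.

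No paired analysis was possible because each library is a different species and the replicate numbers only follow the order of deposition. The edgeR test planned for reads worked back from CPM was not run, because these are not whole numbers. With 1 pool per species, differences between fish are not measured in these files, and a pool's own make-up cannot be told apart from its species. The 792 identifiers were chosen by the authors for differences between these libraries, so their limma p-values are not those of an unselected table. Mixed titles limit what each level says of an enzyme.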
